A study of Mus musculus with 18 samples.

Results

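Titin, the M-band proteins myomesin 1 and myomesin 2, cardiac myosin binding protein C and the large scaffold protein Cmya5 (myospryn) were followed in the left ventricle of mice that lack the microprotein mORF4/NBDY. The 5 genes, Ttn, Myom1, Myom2, Mybpc3 and Cmya5, were chosen by name, and all 5 were found among the 10597 genes listed in each of the deposited tables. All 5 passed the minimum mean of 10 normalized reads in both assays.

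Both genotypes were male C57BL/6 mice aged 20 weeks, kept in normal housing and given no treatment. Wild-type hearts are numbered 1 to 4 and mORF4/NBDY knockout hearts 6 to 10, so n was 4 and 5. Each left ventricle gave 1 poly-A RNA library, which measures transcript level, and 1 ribosome footprint library, which counts the mRNA fragments covered by translating ribosomes. The sources used here do not say which cells lost the gene or whether the wild-type mice were littermates, and a left ventricle holds several cell types. A lower RNA signal in such bulk tissue can come from fewer cells of a type or from less RNA per cell, and these cannot be told apart.

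The thick filament of the sarcomere is built of myosin. Titin is a giant elastic protein that spans from the Z-disc, where its N-terminus is anchored, to the M-band in the middle of the sarcomere, where its C-terminus ends. Myomesins cross-link thick filaments and titin at the M-band, with Myom1 found in striated muscle in general and Myom2 (M-protein) in fast skeletal muscle and heart. Cardiac myosin binding protein C sits on the thick filament in stripes to either side of the M-band, regulates cross-bridge formation, and is a frequent site of mutations in hypertrophic cardiomyopathy. Cmya5 is a large muscle protein that binds a regulatory subunit of protein kinase A, desmin and dysbindin, and helps to hold the junctions between T-tubules and sarcoplasmic reticulum at the Z-disc.

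Of the 5 genes, 2 changed at the RNA level in the knockout, in opposite directions, where 49.4% of all genes tested were called. Myom1 RNA fell by 28.9% and Mybpc3 RNA rose by 34.1%, while for Ttn, Myom2 and Cmya5 the RNA difference did not pass the test. None of the 5 passed the test in footprints, where 0.02% of all genes did. The footprint to RNA ratio of Myom1 rose by 57.6%. In the test of efficiency (footprints against RNA) Myom1 was called, as were 14.4% of all genes.

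Ttn (ENSMUSG00000051747) lies at chr2:76703980-76982557 and Mybpc3 (ENSMUSG00000002100) at chr2:91118114-91136516, which is 14.1 Mb away on the same chromosome. Myom1 (ENSMUSG00000024049) lies at chr17:71003332-71126856, Myom2 (ENSMUSG00000031461) at chr8:15057653-15133420 and Cmya5 (ENSMUSG00000047419) at chr13:93040713-93144724, all in GRCm38 from the RefSeq gene table. The RNA kit does not mark strand, and 3 long non-coding RNA genes (Gm31745, Gm4814 and A630019I02Rik) lie within the Cmya5 span, so their reads and those of Cmya5 cannot be told apart where they overlap. No RefSeq gene overlapped the other 4.

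The promoter windows of Mybpc3 and Myom1 are shown because these genes changed in RNA in opposite directions, and that of Ttn because its level was used as a reference. The windows run from 250 bases before to 50 bases after an annotated start and come from RefSeq (GRCm38.p6), which held a window for 4 of the 5 genes and none for Myom2. Each is written 5′ to 3′ on the strand of the gene. Capitals mark a match to the MEF2 consensus or to the CArG box, the binding motifs of MEF2 factors and of serum response factor, which are known regulators of muscle genes. Both strands were searched, and no window of the 5 genes held both motifs.
Mybpc3, chr2:91117894-91118193, plus strand, MEF2 consensus: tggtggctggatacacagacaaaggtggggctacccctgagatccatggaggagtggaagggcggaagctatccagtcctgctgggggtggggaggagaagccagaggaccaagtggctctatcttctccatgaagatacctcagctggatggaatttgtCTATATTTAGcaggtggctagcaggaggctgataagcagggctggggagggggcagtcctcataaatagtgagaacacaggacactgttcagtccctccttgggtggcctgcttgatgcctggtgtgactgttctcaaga
Ttn, chr2:76982498-76982797, minus strand, MEF2 consensus: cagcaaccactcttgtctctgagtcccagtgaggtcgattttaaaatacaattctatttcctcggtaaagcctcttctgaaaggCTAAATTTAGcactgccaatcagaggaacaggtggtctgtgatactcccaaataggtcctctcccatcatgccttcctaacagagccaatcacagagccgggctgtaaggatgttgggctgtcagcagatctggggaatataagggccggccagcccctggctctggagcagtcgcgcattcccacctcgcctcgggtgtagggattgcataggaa
Myom1, chr17:71019307-71019606, plus strand, CArG box: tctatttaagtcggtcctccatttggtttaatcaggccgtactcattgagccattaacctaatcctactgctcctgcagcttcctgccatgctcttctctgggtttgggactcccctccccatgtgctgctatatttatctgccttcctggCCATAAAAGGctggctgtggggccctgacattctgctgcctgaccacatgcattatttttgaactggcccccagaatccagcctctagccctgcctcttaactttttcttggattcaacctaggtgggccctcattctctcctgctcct
The first base of the match lay at -90 from the start in Mybpc3, at -166 in Ttn and at -99 in Myom1, whose annotated start is inside the gene's span. The Cmya5 window held neither motif. Over all 32544 RefSeq windows of this length, 3.16% held the MEF2 consensus and 1.64% the CArG box. These matches describe the letters of the windows, and binding was not measured.

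Over the listed genes, wild-type RNA libraries held 11.2 to 12.4 M reads (M, 1e6) and knockout ones 15.8 to 20.2 M. Footprint libraries held 6.67 to 36.7 M and 22.9 to 40.8 M. The shallowest footprint library, that of wild-type heart 2, also stood apart from its group, with a median deviation of 0.244 on the log2 scale from the mean of its genotype, against 0.124 to 0.175 in the other footprint libraries. The footprint, efficiency and relation results of the 5 genes are therefore also given without it. Nbdy, the targeted gene, fell from 183 ± 116 (SD, n = 4) to 14.3 ± 3.46 (SD, n = 5) normalized footprint reads. In RNA it fell from 111 ± 7.10 to 73.5 ± 10.7, and the genotypes overlapped in neither assay. Over all genes, the genotypes did not overlap for 1.6% in footprints and for 40.5% in RNA. Wild-type heart 2 held 355 Nbdy footprint reads, against 107 to 151 in the other wild-type hearts. The 8 cardiomyocyte markers were present in every library, with a summed RNA signal of 1522840.3 to 1795281 in wild type and 1342112 to 1544467 in knockout. Myh6, at 1001929 in the wild-type mean, made up most of this sum. Single markers went both ways: Nkx2-5 (0.42) and Tnnc1 (0.26) were called higher in RNA (limma log2 fold changes). Tnnt2 (-0.31), Tnni3 (-0.35) and Pln (-0.22) were called lower, and Myh6, Actc1 and Ryr2 were not called. Summed RNA of the 4 skeletal muscle markers in the tables was 51772 to 93972 in wild type and 28633 to 44493 in knockout, while their footprints overlapped at 1312 to 2801 and 1287 to 3196. Of the skeletal markers, Myh1 (-1.07) and Myh4 (-1.02) were called lower in RNA (limma log2 fold changes), and Myh2 (-0.30) and Actn3 (0.15) were not called. Most of this sum came from Myh1 and Myh4, with wild-type means of 30450 and 29046 in RNA and 883 and 344 in footprints. They are myosin heavy chain genes, which share long stretches of sequence, so the split of reads between them is uncertain. Summed RNA of the 3 atrial markers was 15049 to 16771 and 5257 to 8852, and their footprints overlapped at 10923 to 40325 and 7153 to 22525. Myl4 (-1.56) and Nppa (-0.79) were called lower in RNA and Myl7 (1.53) was not called. The summed skeletal and atrial marker RNA and the RNA read depth thus moved with genotype, and their part in the RNA results was not tested. Footprint read depth overlapped between the genotypes.

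**Figure D1:**
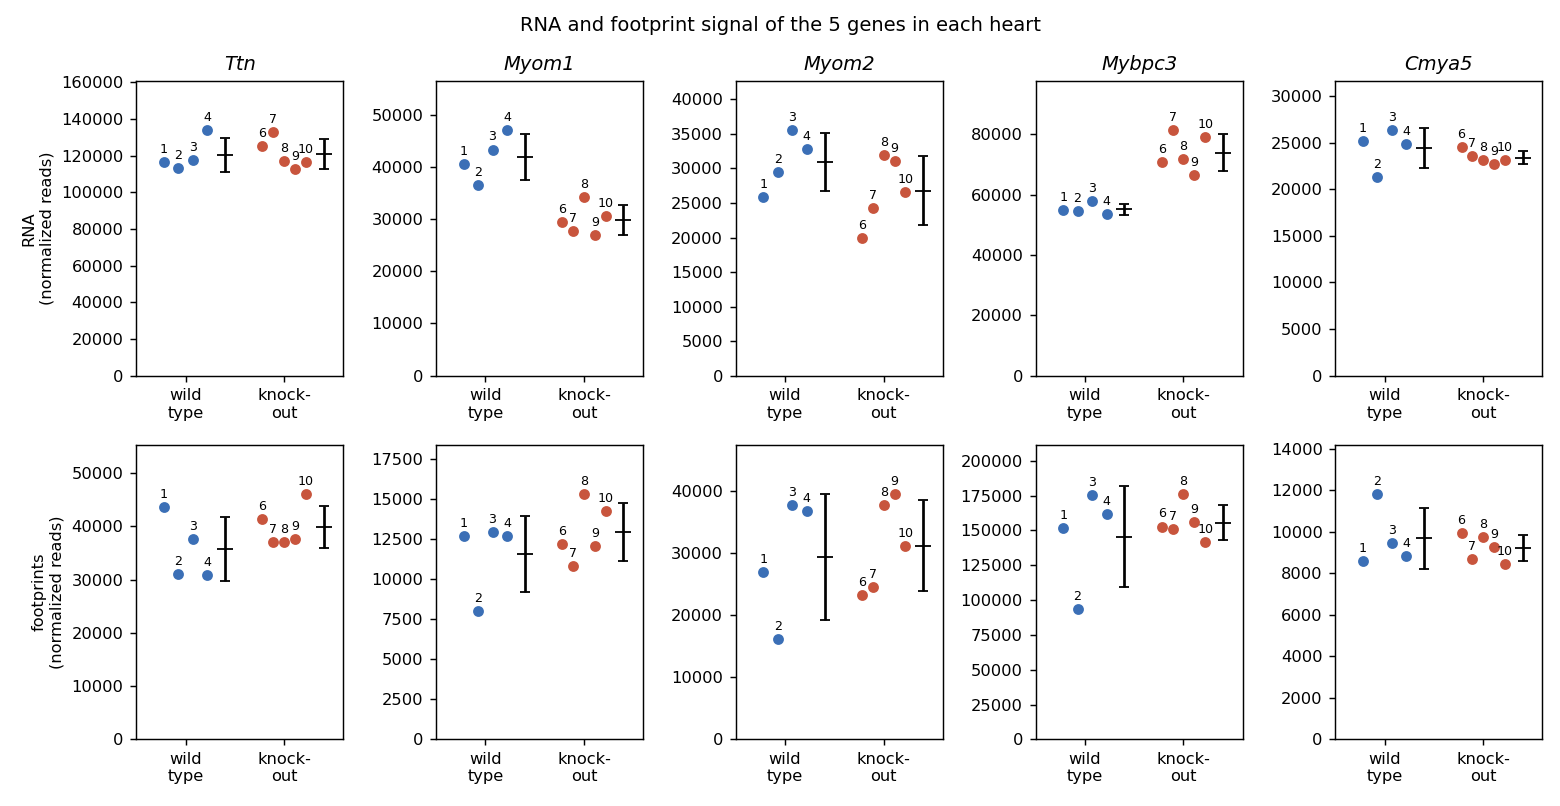
RNA (top row) and footprint (bottom row) signal of the 5 genes, in normalized reads, with 1 point per heart labelled by its number, wild type in blue and knockout in red. Bars show the mean and SD of each genotype. The knockout points lie below all wild-type points for Myom1 RNA and above them for Mybpc3 RNA, and the genotypes overlap in the other panels.

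Titin RNA ranked 13 among the listed genes in the wild-type mean of normalized reads, which are not corrected for length. In wild-type hearts 1 to 4 it stood at 116715, 113106, 117699 and 133839 normalized reads. In knockout hearts 6 to 10 it stood at 125054, 132900.2, 116903, 112845 and 116504. The genotypes overlapped over nearly their whole range, and heart 4 was the highest. The means were 120339.7 ± 9213 (SD, n = 4) and 120841 ± 8084 (SD, n = 5), with a fitted log2 fold change of 0.01 (95% interval -0.16 to 0.17, limma, adjusted p = 0.949). Scaling every library to the same total moved this value to 0.15 (limma, adjusted p = 0.0887). Quantile normalization moved it to 0.30 (limma, adjusted p = 0.000189), so a rise in Ttn RNA was called under that setting. In the main fit 49.4% of all genes were called in RNA, and the share under quantile normalization is not given here.

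Titin footprints were 43555, 31066, 37667 and 30905 normalized reads in wild-type hearts 1 to 4 and 41314, 37050.1, 37076, 37693 and 46094 in knockout hearts 6 to 10. The lowest values came from wild-type hearts 2 and 4 and the highest from knockout heart 10, with overlap between the genotypes. The log2 fold change was 0.16 (-0.10 to 0.43, limma, adjusted p = 0.854), or 0.10 without wild-type heart 2. Titin took 0.760% of the RNA reads and 0.159% of the footprint reads in wild-type libraries.

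Myom1, the myomesin of all striated muscle, had RNA values of 40602, 36639.7, 43369 and 47090.3 normalized reads in wild-type hearts 1 to 4. The knockout hearts 6 to 10 had 29458, 27806, 34167, 26971 and 30650.0. Every knockout value was below every wild-type value, and the gap lay between wild-type heart 2 and knockout heart 8. The mean fell from 41925 ± 4414 (SD, n = 4) to 29811 ± 2823 (SD, n = 5), and the fitted log2 fold change was -0.49 ± 0.09 (SE, interval -0.68 to -0.30, limma, adjusted p = 0.000603). The call held in all 18 alternatives, between -0.55 and -0.28, and the authors' deposited table gives -0.48.

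The RNA test called 49.4% of the 10580 genes tested, 24.3% higher and 25.1% lower in knockout, and the genotypes did not overlap for 40.5% of genes (19.8% with all knockout hearts higher, 20.6% with all lower). A count of 2 called of 5 genes is therefore no more than the share of all genes called. In size, the Myom1 change was larger than that of 77.9% of genes and the Mybpc3 change larger than that of 70.8%.

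Myom1 footprints did not follow the RNA. They were 12687, 8011, 12953 and 12697 normalized reads in wild-type hearts 1 to 4 and 12177, 10854, 15329, 12055 and 14288 in knockout hearts 6 to 10. Wild-type heart 2 was the lowest by far, and the other wild-type values lay inside the knockout range. The log2 fold change was 0.18 (-0.14 to 0.49, limma, adjusted p = 0.854), and it was 0.01 without wild-type heart 2.

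Myom2, the second M-band cross-linker, varied most from heart to heart. Its RNA was 25815, 29547, 35553 and 32867 normalized reads in wild-type hearts 1 to 4 and 19978, 24255, 32018, 31113 and 26619.6 in knockout hearts 6 to 10. Knockout hearts 6 and 7 were the lowest of all 9, while hearts 8, 9 and 10 lay inside the wild-type range. The log2 fold change of -0.22 (-0.51 to 0.08, limma) did not pass the test (adjusted p = 0.204). Myom2 footprints were 26952, 16156, 37874 and 36873 in wild type and 23339, 24514, 37771, 39582 and 31132 in knockout, and both genotypes held low and high hearts. The coefficient of variation of Myom2 footprints was 34.4% in wild type and 23.7% in knockout, against 24.7% and 8.18% for Mybpc3 footprints. In RNA it was 13.6% and 18.6% for Myom2 and 3.39% and 8.24% for Mybpc3. The Myom2 footprint difference was 0.13 (-0.33 to 0.59, limma, adjusted p = 0.923), and it was -0.13 without wild-type heart 2.

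Mybpc3, which encodes the cardiac myosin binding protein C, had RNA values of 54706, 54539.8, 57802 and 53462 normalized reads in wild-type hearts 1 to 4. Knockout hearts 6 to 10 had 70742, 81331, 71913, 66571 and 78960.1. All 5 knockout values stood above the highest wild-type value, and the wild-type hearts lay close together. The mean rose from 55127 ± 1867 (SD, n = 4) to 73903 ± 6092 (SD, n = 5), and the fitted log2 fold change was 0.42 ± 0.07 (SE, interval 0.27 to 0.57, limma, adjusted p = 0.000394). This call too held in all 18 alternatives, between 0.38 and 0.56, and the authors' deposited table gives 0.42. The share of Mybpc3 in RNA reads went from 0.349% to 0.517%. That of Myom1 went from 0.265% to 0.208% and that of Ttn from 0.760% to 0.846%. Shares differ from the normalized reads because the normalized RNA totals were lower in knockout. These totals were 14.0 to 14.7 M in knockout and 15.5 to 16.5 M in wild type.

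Mybpc3 footprints were 151570.2, 93597, 175524 and 161640.0 normalized reads in wild-type hearts 1 to 4 and 152836, 151113, 176215, 156120.0 and 141645 in knockout hearts 6 to 10. Wild-type heart 2 was far below the rest, and the other 8 hearts of both genotypes overlapped. The log2 fold change was 0.13 (-0.21 to 0.48, limma, adjusted p = 0.892) with all hearts and -0.07 without wild-type heart 2.

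Cmya5, the scaffold at the T-tubule junctions, had RNA values of 25224, 21276, 26342 and 24868 normalized reads in wild type and 24501, 23590.0, 23093, 22709 and 23083 in knockout. The knockout hearts lay within a narrow band inside the wild-type range, with a coefficient of variation of 2.96%. Its log2 fold change was -0.06 (-0.20 to 0.08, limma, adjusted p = 0.472), and its sign turned under quantile normalization (0.10) and under scaling to the same total (0.09). Its footprints were 8592, 11828, 9484 and 8821 in wild type and 9936, 8679.9, 9731, 9269.9 and 8469.8 in knockout. Here wild-type heart 2 was the highest of all 9 hearts, whereas it was the lowest for Myom1, Myom2 and Mybpc3. The footprint difference was -0.06 (-0.30 to 0.18, limma, adjusted p = 0.930) and 0.04 without that heart.

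Over the whole table the footprint test called 2 of 9976 genes, or 0.02%, both lower in knockout, with 505 genes (5.06%) at an unadjusted p below 0.05. The genotypes did not overlap in footprints for 1.6% of genes, 0.772% with all knockout hearts higher and 0.832% with all lower. None of the 5 genes was called, and none had footprint values that did not overlap.

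**Figure D2:**
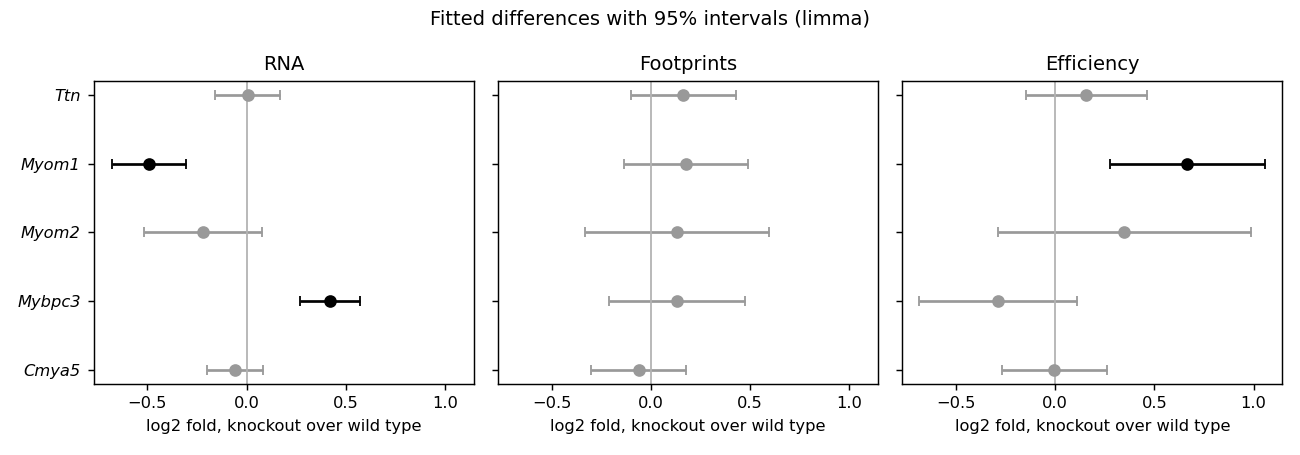
Fitted log2 fold changes, knockout over wild type, of the 5 genes in RNA, footprints and efficiency, with 95% intervals from limma. Black points passed an adjusted p of 0.05 over all genes and grey points did not: Myom1 (-0.49) and Mybpc3 (0.42) in RNA and Myom1 (0.67) in efficiency are black.

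The footprint signal divided by the RNA signal of the same heart, called the ratio here, describes how many footprints a gene gave for its RNA. Footprints fall on coding sequence while RNA reads cover the whole transcript, so the level of the ratio also depends on the untranslated part of each transcript, which was not corrected for. The median gene had a ratio of 1.40 to 1.47 in the 9 hearts. Mybpc3 was the highest of the 5 genes in 9 of 9 hearts, and Myom2 was next in 8 of 9. Ttn, Myom1 and Cmya5 stayed among the lower ratios of the table. Among the 9974 genes measured in both assays, the ratio of Ttn lay between percentiles 7.59 and 12.1 in wild type and 8.44 and 11.5 in knockout, and that of Mybpc3 between 58.6 and 81.9 and between 60.8 and 75.1. The 2 M-band paralogues differed, with Myom1 between percentiles 7.10 and 9.93 and Myom2 between 19.3 and 40.6 in wild type.

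**Figure D3:**
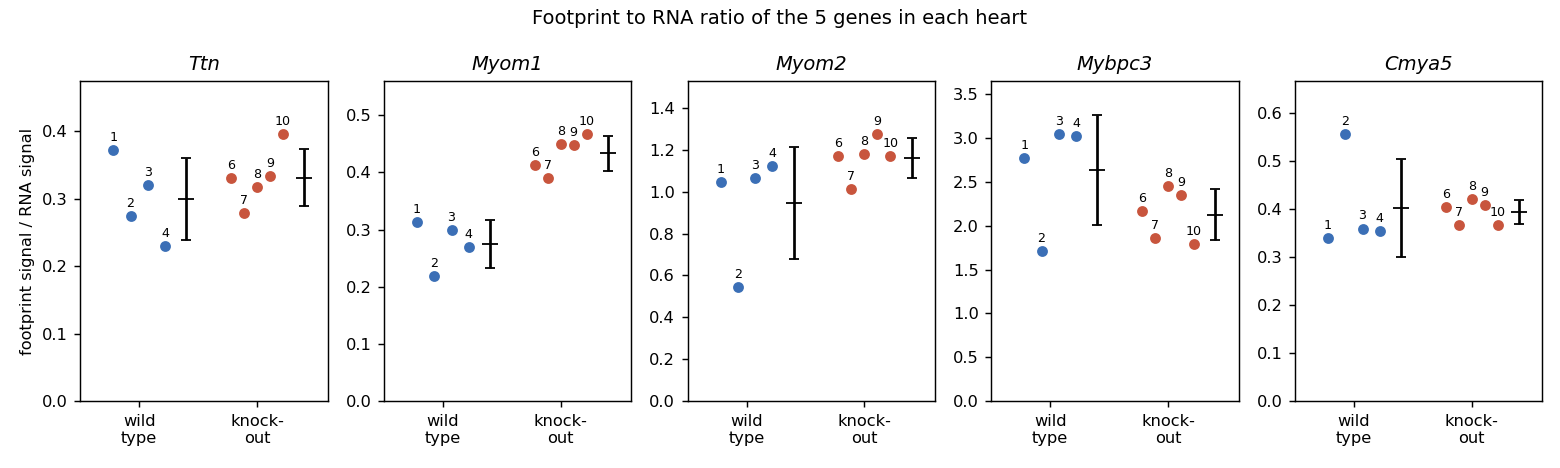
Footprint signal divided by RNA signal for the 5 genes, 1 point per heart labelled by its number, with the mean and SD of each genotype. All 5 knockout hearts lie above all 4 wild-type hearts for Myom1, and wild-type heart 2 lies apart from its group for Myom2 (0.547) and Cmya5 (0.556).

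For Myom1 the ratio was 0.312, 0.219, 0.299 and 0.270 in wild-type hearts 1 to 4 and 0.413, 0.390, 0.449, 0.447 and 0.466 in knockout hearts 6 to 10. No knockout value reached down to the wild-type range. The mean rose from 0.275 ± 0.0415 (SD, n = 4) to 0.433 ± 0.0306 (SD, n = 5). In the test of efficiency, the genotype by assay interaction over all 18 libraries, the log2 difference was 0.67 ± 0.19 (SE, interval 0.27 to 1.06, limma, adjusted p = 0.0221). Without wild-type heart 2 it was 0.56 (adjusted p = 0.0182). It no longer passed under quantile normalization (0.46, adjusted p = 0.115), with libraries scaled to the same total (0.51, adjusted p = 0.0654) or without knockout heart 10 (0.64, adjusted p = 0.0522). With the heart as a replicate block, the same difference had a limma adjusted p of 0.000852. The authors' deposited table gives 0.62 for Myom1, once turned to knockout over wild type, and tags the gene as buffered.

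The efficiency test called 14.4% of 9974 genes, 7.83% higher and 6.55% lower, and the ratio did not overlap between genotypes for 18.3%, 9.55% with all knockout hearts higher and 8.73% with all lower. Myom1 was the only one of the 5 called, a share of 1 in 5. It uses the same RNA libraries as the RNA test, so its rise in efficiency and its fall in RNA are not separate results.

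Myom1 also changed its place among the 5. Its ratio was above that of Ttn in 1 of 4 wild-type hearts and in 5 of 5 knockout hearts. That of Cmya5 was above Myom1 in 4 of 4 wild-type hearts and in 0 of 5 knockout hearts. In the whole table the Myom1 ratio lay between percentiles 12.3 and 14.5 in knockout.

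The Mybpc3 ratio was 2.77, 1.72, 3.04 and 3.02 in wild-type hearts 1 to 4 and 2.16, 1.86, 2.45, 2.35 and 1.79 in knockout hearts 6 to 10. Wild-type heart 2 was the lowest of all 9, and the other wild-type hearts stood above all knockout hearts. The share of all genes that separate in this way once that heart is set aside was not computed. The efficiency difference of -0.29 ± 0.19 (SE, interval -0.68 to 0.11, limma) did not pass the test with all hearts (adjusted p = 0.350). Without wild-type heart 2 it was -0.48 and passed (limma, adjusted p = 0.0189). In the other 18 of 19 alternatives it did not pass. With 1 heart left out, 993 to 1220 of all genes were called in efficiency. The Mybpc3 efficiency difference uses the same RNA libraries as the Mybpc3 rise in RNA, so they are not separate results. Wild-type hearts averaged 2.64 ± 0.626 (SD, n = 4), against 2.12 ± 0.290 (SD, n = 5) for the knockout.

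For Ttn the ratio was 0.373, 0.275, 0.320 and 0.231 in wild type and 0.330, 0.279, 0.317, 0.334 and 0.396 in knockout, with overlap throughout. The Ttn efficiency difference was 0.16 (-0.15 to 0.46, limma, adjusted p = 0.529), and 0.12 without wild-type heart 2. For Myom2 the ratio was 1.04, 0.547, 1.07 and 1.12 in wild type and 1.17, 1.01, 1.18, 1.27 and 1.17 in knockout. Apart from wild-type heart 2, these lay within a narrow range, although the RNA and the footprints of Myom2 each varied widely. The Myom2 efficiency difference was 0.35 (-0.29 to 0.99, limma, adjusted p = 0.501), and 0.10 without wild-type heart 2. For Cmya5 the ratio was 0.341, 0.556, 0.360 and 0.355 in wild type and 0.406, 0.368, 0.421, 0.408 and 0.367 in knockout, and the efficiency difference was -0.00 (-0.27 to 0.26, limma, adjusted p = 0.990). Without wild-type heart 2 the Cmya5 ratio of every knockout heart was above that of every wild-type heart, yet the efficiency difference of 0.16 did not pass (adjusted p = 0.299). With fewer hearts groups separate more easily, and the share of all genes that do so without this heart was not computed. With all 9 hearts it was 18.3%.

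The titin signal of a library served as an internal reference, which needs no size factor. The tests relative to Ttn use the same values of the 5 genes as the tests above, so they are not separate results. In wild-type hearts Myom1 RNA stood at 34.8 ± 1.84% of Ttn RNA (SD, n = 4), against 24.8 ± 3.13% (SD, n = 5) in the knockout, with no overlap. The log2 difference relative to Ttn was -0.50 ± 0.11 (SE, limma, adjusted p = 0.00143). Mybpc3 RNA stood at 46.0 ± 4.16% of Ttn in wild type and 61.2 ± 4.17% in knockout, again with no overlap, and a log2 difference of 0.41 ± 0.10 (SE, limma, adjusted p = 0.00469). Myom2 at 25.8 ± 3.40% and 22.4 ± 5.25%, and Cmya5 at 20.3 ± 1.93% and 19.4 ± 0.946%, did not pass (limma, adjusted p = 0.252 and 0.607). Relative to Ttn RNA, 39.4% of all genes were called, 18.7% higher and 20.7% lower. The share of genes without overlap relative to Ttn was not computed, and for RNA values themselves it was 40.5%. Quantile normalization, under which Ttn itself was higher in knockout, made Myom2 (-0.36, adjusted p = 0.0134) and Cmya5 (-0.20, adjusted p = 0.0320) lower relative to Ttn.

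In footprints the same percentages did not separate the genotypes. Myom1 stood at 32.6 ± 6.67% of Ttn footprints in wild type and 32.6 ± 5.00% in knockout (limma log2 difference 0.01, interval -0.35 to 0.37, adjusted p = 0.995). Mybpc3 stood at 410 ± 103% and 395 ± 61.8%, Myom2 at 83.4 ± 31.8% and 79.4 ± 22.4%, and Cmya5 at 27.9 ± 7.71% and 23.3 ± 2.97%. For these 3 genes the limma intervals of the log2 difference ran from -0.47 to 0.41, from -0.48 to 0.41 and from -0.60 to 0.15. Without wild-type heart 2 the differences were -0.09 for Myom1, -0.23 for Myom2, -0.17 for Mybpc3 and -0.06 for Cmya5, and none passed. Relative to Ttn footprints, 0.0401% of all genes were called. Thus the RNA proportions of Myom1 and Mybpc3 to Ttn differed between the genotypes, while for footprints no difference was detectable within intervals of this width.

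**Figure D4:**
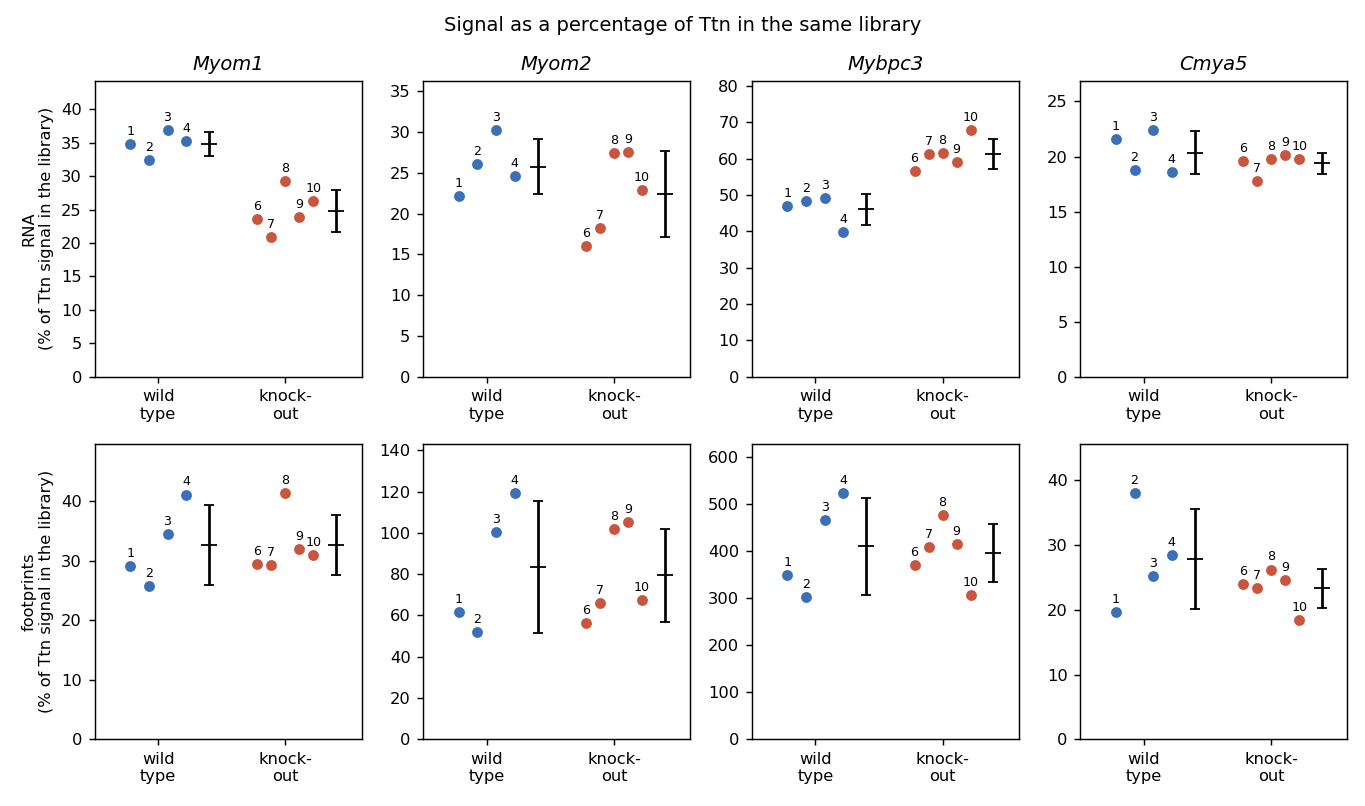
RNA (top row) and footprint (bottom row) signal of Myom1, Myom2, Mybpc3 and Cmya5 as a percentage of Ttn in the same library, 1 point per heart labelled by its number, with the mean and SD of each genotype. In RNA the genotypes are apart for Myom1 and Mybpc3, and in footprints all 4 genes overlap.

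Myom1 RNA and footprints were positively correlated across hearts, but not past the adjustment over all genes. Over the 9 hearts, with the mean of each genotype subtracted on the log2 scale, Pearson's r was 0.832 (2-sided exact permutation p = 0.00729). The correlation of the ranks of these deviations, centred again within genotype and called rho here, was 0.931 (exact permutation p = 0.00278). The Benjamini-Hochberg adjusted values over the 9974 genes were 0.213 and 0.215, so neither passed. For Myom2, r was 0.702 (exact permutation p = 0.0351, adjusted 0.331) and rho 0.763 (exact permutation p = 0.0160, adjusted 0.314). Leaving out the 2 hearts farthest from the median RNA gave r of 0.814 for Myom1 and 0.576 for Myom2, and leaving out wild-type heart 2 gave 0.768 and 0.959. The median r over all genes was 0.249, with 0 of 9974 genes called and 13.2% at an unadjusted p below 0.05, and Myom1 stood at percentile 94.8 of these r values and Myom2 at percentile 87.1.

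For Ttn r was -0.298 (exact permutation p = 0.514), for Mybpc3 -0.022 (exact permutation p = 0.929) and for Cmya5 -0.640 (exact permutation p = 0.250). Without wild-type heart 2 these became -0.558, -0.231 and 0.522, and without the 2 hearts farthest from the median RNA they became 0.386, 0.103 and 0.364. Whether r differed between the genes was not tested. Each genotype alone holds fewer than 6 hearts, so no r is given within 1 genotype.

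**Figure D5:**
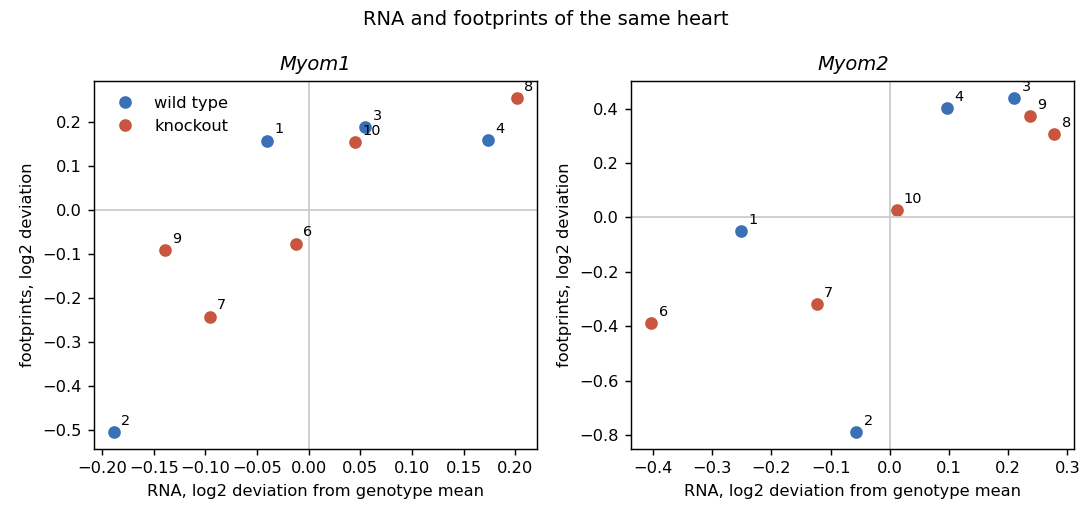
Footprints against RNA of the same heart for Myom1 and Myom2, both as log2 deviation from the mean of the heart's genotype, 1 point per heart labelled by its number. Points run from low left to high right, with r = 0.832 for Myom1 and 0.702 for Myom2, and wild-type heart 2 is the lowest point in footprints in both panels.

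The genes with the most similar pattern over the 18 libraries were found by the root mean square difference of log2 values, centred per gene within each assay. For Myom1 the nearest of 9974 genes was Ppil4 (0.0849 on the log2 scale), followed by Clasp1 (0.114) and Ddx1 (0.120). For Mybpc3 these were Upf1 (0.0889), Trappc9 (0.0913) and Tfip11 (0.0950). Ttn was nearest to Mast2 (0.108), Srpk1 (0.111) and Fryl (0.113), and Cmya5 to Nucb1 (0.0905), Clptm1 (0.0906) and Sulf2 (0.0965). Myom2 was nearest to Dsp (0.147), which encodes the desmosomal protein desmoplakin, then Eif2b3 (0.152) and Thrap3 (0.158). The profiles of Ttn and Cmya5 vary little, with a root mean square of 0.145 and 0.118 about their own means, so a gene with a flat profile also scores low against them. Over all genes the median difference was 0.305 from Ttn and 0.292 from Cmya5. None of the 5 was among the nearest 3 of another, and the closest pair within them, Ttn and Cmya5 (0.214), was farther apart than either was from a flat profile. Myom1 ranked 262 among the genes nearest to Myom2.

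Companion genes of the same structures were read from 6 lists of 41 genes in all, of which 36 were measured. In RNA 15 rose and 7 fell (61.1% called, against 49.4% of all genes), with a median log2 fold change of 0.09 against 0.01 over all genes. In footprints 0 of 36 were called, as against 0.02% of all genes, and in efficiency 5 rose and 2 fell (19.4%, against 14.4%). Efficiency uses the same RNA libraries as the RNA test. An efficiency call opposite to the RNA call of the same gene is therefore not a separate result. Myom3, Igfn1, Mybpc1, Mybph and Ankrd2 were not analysed here.

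Among M-band and titin relatives, 1 of the 2 measured rose in RNA and neither was called in footprints or efficiency. Obsl1, a cytoskeletal adaptor protein, rose by a log2 value of 0.26 (adjusted p = 0.0192, limma), a call lost without wild-type heart 2 (0.18, adjusted p = 0.0522). Of the myosin binding protein paralogues, 0 of 2 measured were called in any of the 3 comparisons.

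Of 8 genes for thick filament myosin, its kinase and its chaperones, 4 rose and 2 fell in RNA. Unc45b, a myosin chaperone, rose by 0.48 (limma, adjusted p = 0.00936). Myh7b, a myosin heavy chain gene with 23994 normalized RNA reads and 676 footprint reads in the wild-type mean, fell by 1.16 in RNA (adjusted p = 0.000313) and rose by 1.71 in efficiency (adjusted p = 0.000571), or by 1.72 without wild-type heart 2. Myosin heavy chain genes share long stretches of sequence, so the split of reads between them is uncertain. Of 14 titin ligands, 6 rose and 2 fell in RNA. Sqstm1, an autophagy receptor recruited to the titin kinase domain through Nbr1, rose by 0.46 (adjusted p = 1.18e-05), and Smyd2, a methyltransferase that acts with titin's N2A region, rose by 0.44 (adjusted p = 3.17e-05). Ankrd1, a stretch-responsive ankyrin repeat protein of the same region, fell by 1.10 (adjusted p = 0.000566).

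Of 5 Cmya5 partners, 3 rose and 1 fell in RNA. Des, the muscle intermediate filament protein desmin, rose by 0.42 (limma, adjusted p = 0.000384) and Dtnbp1, which encodes dysbindin, by 0.34 (adjusted p = 0.000666). Prkar2a, the protein kinase A subunit that Cmya5 binds, fell by 0.70 (adjusted p = 6.61e-06). In efficiency Prkar2a and Dtnbp1 were each called in the direction opposite to the RNA, at 0.46 (adjusted p = 0.0367) and -0.43 (adjusted p = 0.0309). These calls were lost in 9 and 5 of 19 alternatives, and with single hearts left out the adjusted p ran from 0.00267 to 0.140 and from 0.0304 to 0.0795. Of 5 regulators of titin splicing, 1 rose and 2 fell in RNA. Rbfox1 fell by 0.50 in RNA (adjusted p = 0.00208) and rose by 0.99 in efficiency (adjusted p = 0.000466), or by 0.95 without wild-type heart 2. Rbfox2 fell by 0.33 in RNA (adjusted p = 0.00167), a call lost with libraries scaled to the same total (-0.18, adjusted p = 0.0697). Rbm20, the main titin splicing factor, did not pass in RNA (-0.16, adjusted p = 0.129). Titin isoforms cannot be read from gene-level values.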

How the data were processed

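Poly-A RNA and ribosome footprints of the same 9 left ventricles (18 libraries) were analysed. Per the labels' protocols, TRIzol was used for the RNA, and libraries were made with the TruSeq RNA v2 kit, which does not mark strand, and the NEXTflex Small RNA-Seq v3 kit. STAR 2.7.1a, HTSeq, DESeq2 and GRCm38 (mm10) are named in the submitters' processing notes, with no role given. The authors deposited a normalized signal per gene and library, which by its values is gene counts divided by 1 size factor per library, with whole reads recovered for 100% of values within 0.01 reads. In knockout RNA libraries few low values were there to check that step. The deposited ratio table holds footprint over RNA signal of the same heart. The deposited tables also hold log2 fold changes and p-values by the authors. Their deposited efficiency fold has the opposite sign to knockout over wild type in 95.3% of genes and was turned here. Of 10597 gene IDs, 10560 matched a symbol. The sources used here do not give the rule by which the authors listed these genes.

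Values were compared with limma 3.58.1 in R 4.3.3, on log2(value + 1) and with a trend of variance on mean, for genes with a mean of at least 10, at a Benjamini-Hochberg adjusted p below 0.05 over all genes tested. A fold change on this scale understates the change of low genes. Efficiency was the genotype by assay interaction over 18 libraries, with no term for the heart. The numbers pair the libraries, since the labels give each heart 1 library of each assay. Deviations from the genotype mean over 8066 genes correlated between assays at 0.208 to 0.502 for the same heart, and at a median of -0.0753 for different hearts. No 2 libraries of a group agreed within sampling noise (chi-square per degree of freedom at least 6.05). The fits were tested on simulated data.

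Alternatives were the pseudocount (0.5 and 8), the filter, TMM factors from edgeR 4.0.16, quantile normalization, no trend, each heart left out, the replicate block, edgeR and DESeq2 1.42.0 on whole footprint reads, and the authors' deposited tests. Scaling to equal totals, and the alternatives of the relation across hearts, were chosen after seeing the data. Named genes were the 5 genes, Nbdy, the 3 nearest in pattern, and up to 3 called genes per companion list, direction and comparison, of which a part is printed. One gene of the companion lists is not reported here and was left out of their counts. The 5 genes and the lists were chosen with earlier results of these data known. Levels per length were not computed, as no transcript lengths were used here.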

Additional observations from a re-analysis of the deposited data

Results flagged for a closer look

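Each group of 4 or 5 hearts was checked for a heart far from the others, over 30 groups (5 genes, 2 genotypes, and RNA, footprints and ratio). Chance flags about 1 in 20 such groups. In 3 groups 1 heart stood apart, and it was wild-type heart 2 each time. Its Myom1 footprint signal was 8011 normalized reads, with the nearest wild-type heart at 12687. Its Myom2 ratio of footprints to RNA was 0.547, with the nearest at 1.04. Its Cmya5 ratio was 0.556, with the nearest at 0.360, and thus on the high side. This footprint library was also the shallowest, at 6.67 M (1e6) reads, and its median deviation from its group was the largest, at 0.244 on the log2 scale. The part of depth in these values was not tested. Heart 2 RNA values of the 5 genes were not apart from their group by the same check.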

How the results depend on the processing

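The RNA calls of Myom1 and Mybpc3 held in all alternatives run for them, alone and relative to Ttn. Both kinds of test use the same RNA libraries. Footprints resolved little: the number of genes called was 2, against 0 with no filter, 6 in the authors' deposited table, 6 with DESeq2 and 2 with edgeR on whole reads, and 0 to 3 with 1 heart left out. Called relative to Ttn were 4173 genes in RNA, against 6407 with quantile normalization (810 higher, 5597 lower), and 4 in footprints, against 2 with no filter, 1 with no trend, and 2 to 10 with 1 heart left out. Leaving out 1 heart gave 4772 to 5064 RNA calls against 5230 and 993 to 1220 efficiency calls against 1434. With the heart as a replicate block, 1852 genes were called in efficiency (989 higher, 863 lower), and no call among the 5 genes changed. Scaling to equal totals moved the median RNA change from 0.01 to 0.16 and the split to 3943 higher and 1615 lower, from 2570 and 2660. It moved the median efficiency change from -0.02 to -0.18 and the split to 432 higher and 1184 lower, from 781 and 653. Relative to a median of 0.16, Ttn RNA (0.15) did not stand apart under that scaling.

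Where a value changed sign, the cause was not tested. Quantile normalization gave -0.12 for Ttn efficiency, -0.0028 for Myom1 footprints relative to Ttn and 0.10 for Cmya5 RNA, and equal totals gave 0.087 for Cmya5 RNA. With 1 heart left out, Ttn RNA ranged from -0.028 to 0.059. Footprint changes ranged from -0.13 to 0.28 for Myom2, from -0.068 to 0.23 for Mybpc3 and from -0.12 to 0.038 for Cmya5, and Cmya5 efficiency from -0.074 to 0.16. Footprints relative to Ttn ranged from -0.094 to 0.13 for Myom1, from -0.23 to 0.16 for Myom2 and from -0.17 to 0.10 for Mybpc3. The relation of RNA to footprints across hearts turned for Ttn from -0.298 to 0.000109 with equal totals and to 0.386 without the 2 farthest hearts, for Mybpc3 from -0.022 to 0.103, and for Cmya5 from -0.640 to 0.364 without these and 0.522 without wild-type heart 2. The 5 genes had at least 15662 RNA reads per library and 2321 footprint reads, the latter for Myom1 in wild-type heart 2, the shallowest library. The part of depth in the results was not tested.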
